A study of Mus musculus with 6 samples.

Results

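Insulin-like growth factor 1 (IGF1), its receptor and the IGF binding proteins were followed in cardiac fibroblasts (CFs) cultured from mouse hearts. The members were taken by symbol from the deposited table, and all 8 were found among its 19446 genes: the ligand gene *Igf1*, the receptor gene *Igf1r* and the binding protein genes *Igfbp2* to *Igfbp7*. All 8 had enough reads to be tested, and *Igfbp1* was not analysed here. The study compared wild type (WT) CFs with CharmeKO CFs, 3 libraries each, to ask what the loss of the long non-coding RNA *Charme* does to these cells. In CharmeKO mice a polyadenylation signal had been inserted into the *Charme* locus of every cell, so that the loss is not limited to fibroblasts. The study describes *Charme* as not expressed in adult CFs. The mice of both groups were of the C57BL/6J strain and, per the labels, 5 weeks old. For explant cultures the study's methods give a range of ages around 5 weeks. Per the study's methods the cultures were explant outgrowths of atrial tissue pooled from littermates, grown on fibronectin in medium rich in serum, without further treatment. The study's methods state that each experiment used at least 3 independent primary isolations, without naming the libraries. The labels do not say whether the libraries of a group came from separate cultures, so the p-values measure only the spread between these libraries.

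IGF1 is a secreted growth factor that acts through a receptor tyrosine kinase and, downstream of it, the PI3K/Akt and mTOR pathways. In the heart, fibroblasts and macrophages are known sources of it, and cardiomyocytes respond to it with growth and survival. The IGF binding proteins hold IGFs outside the cell: they can keep them from the receptor, carry them, or release them when a protease cuts the binding protein. IGFBP7 belongs to the same family by sequence but binds IGFs weakly.

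The genes lie at 7 places in the genome (GENCODE M21, build GRCm38). *Igf1* is on chromosome 10 (87858265 to 87937042, plus strand) and *Igf1r* on chromosome 7 (67952827 to 68233668, plus strand). *Igfbp2* (chromosome 1, 72824503 to 72852474, plus strand) and *Igfbp5* (72857932 to 72874884, minus strand) face each other tail to tail, 5.46 kb apart. *Igfbp3* (7206086 to 7213923, minus strand) and *Igfbp4* (99041244 to 99054392, plus strand) are both on chromosome 11, *Igfbp6* is on chromosome 15 (102144362 to 102149511, plus strand), and *Igfbp7* is on chromosome 5 (77349240 to 77408041, minus strand). No other annotated gene overlaps any of the 8 on the same strand. The antisense gene *Igf1os* overlaps *Igf1*, and *Polr2b* and *Gm34648* overlap *Igfbp7*, each on the opposite strand, and the authors counted reads by strand.

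The sequences just upstream of the start site are shown for 5 binding protein genes, to set 2 that were steady between libraries (*Igfbp7* and *Igfbp4*) beside 3 that were variable (*Igfbp3*, *Igfbp2* and *Igfbp5*). All 8 members matched a RefSeq entry (GRCm38.p6), and the 100 bases before the start are printed 5′ to 3′ on the gene's strand. Capitals mark the letters GGGCGG on either strand, a match to the binding motif of Sp1-type factors, and the letters TATA where they begin 40 to 20 bases before the start. Overlapping TATA matches run together. Windows are given for *Igfbp7* (chr5:77408046-77408145, minus strand), *Igfbp4* (chr11:99041144-99041243, plus strand), *Igfbp3* (chr11:7213924-7214023, minus strand), *Igfbp2* (chr1:72824380-72824479, plus strand, the upstream of its 2 starts) and *Igfbp5* (chr1:72874866-72874965, minus strand).
Igfbp7: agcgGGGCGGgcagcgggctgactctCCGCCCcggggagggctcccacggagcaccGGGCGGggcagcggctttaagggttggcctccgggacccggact
Igfbp4: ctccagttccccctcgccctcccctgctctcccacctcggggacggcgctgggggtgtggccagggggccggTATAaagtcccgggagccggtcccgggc
Igfbp3: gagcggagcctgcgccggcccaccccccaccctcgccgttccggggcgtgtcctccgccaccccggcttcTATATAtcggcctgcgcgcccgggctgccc
Igfbp2: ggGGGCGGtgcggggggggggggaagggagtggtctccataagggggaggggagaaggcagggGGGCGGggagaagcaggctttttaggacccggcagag
Igfbp5: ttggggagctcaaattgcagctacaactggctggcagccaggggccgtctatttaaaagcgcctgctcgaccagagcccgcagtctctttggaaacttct

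*Igfbp7* held 3 matches to GGGCGG and *Igfbp2* held 2, as did *Igf1r*, whose window is not printed. *Igfbp4* had TATA beginning 28 bases before the start, and *Igfbp3* had overlapping TATA matches beginning 30 and 28 bases before it. Of 32851 RefSeq promoter windows of the same length, 24.7% held GGGCGG and 5.81% held TATA at that distance. A steady gene and a variable gene are found with either motif, as the values below show. Neither motif was in the window of *Igfbp5*, nor in those of *Igfbp6*, *Igf1* and the other *Igfbp2* start, which are not printed. *Igfbp5* and *Igfbp6* were the most variable members. A link between motif and spread was not tested.

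The libraries held 38330019 to 46797446 recovered reads assigned to genes. The feature taken as *Charme* in the table, which is an inference because it alone has no Ensembl ID, was read 5, 15 and 11 times in WT 1, 2 and 3, and 0, 6 and 3 times in the CharmeKO libraries, where 0 allows up to 3 reads. The fibroblast markers *Col1a1* (394739 to 818672 normalised reads), *Pdgfra* (4110 to 10084) and *Dcn* (14149 to 98888) were high in every library. Of the endothelial markers, 6 of 9 were listed, with a summed level of 174 to 299 in WT and 69 to 381 in CharmeKO, and *Cdh5* was at 0 in WT 2 and CharmeKO 3. The macrophage and haematopoietic markers (15 of 16 listed) summed to 2049 to 8940 in WT and 1057 to 19327 in CharmeKO, with *Ptprc* at 0 in CharmeKO 3. Libraries of equal replicate number deviated together from their group means, and the numbers were taken to pair them (pairs 1, 2 and 3). Pair 3 was the weakest: its correlation across genes (r = 0.217) was no higher than that of WT 2 with CharmeKO 3 (0.222). In bulk RNA, fewer cells of a type and less RNA per cell cannot be told apart.

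*Igfbp7* was by far the most abundant of the members. Per kilobase of exon it held 32196, 18409 and 29640 normalised reads in WT 1, 2 and 3 and 41852, 29913 and 24390 in CharmeKO 1, 2 and 3. It exceeded *Igfbp4*, the next in order, in 6 of 6 libraries, by 1.91 to 4.13 on the log2 scale. *Igfbp7* made up 60.7% to 86.9% of the per-kilobase level summed over the 6 binding protein genes, lowest in WT 2 and CharmeKO 2 (69.7%).

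Below *Igfbp7*, the order by median level per kilobase was *Igfbp4* (2904), *Igfbp3* (1827), *Igfbp6* (1200 normalised reads per kilobase, 194 to 3235 over the libraries), *Igfbp2* (713), *Igf1r* (433), *Igf1* (427) and *Igfbp5* (306). Among these neighbours, the first of the pair was higher in 5 of 6 libraries for *Igfbp4* over *Igfbp3* and for *Igfbp3* over *Igfbp6*. It was higher in only 4 of 6 for *Igfbp6* over *Igfbp2*, *Igfbp2* over *Igf1r* and *Igf1r* over *Igf1*, so those neighbours did not differ beyond their spread. *Igf1* was above *Igfbp5* in 6 of 6 libraries, but by only 0.04 on the log2 scale in the closest. With the length of the longest transcript in place of all exons, an alternative chosen after seeing the data, the order of the medians was unchanged, and *Igfbp6* was above *Igfbp2* in 3 of 6.

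The summed level of the binding protein genes other than *Igfbp7* stood higher in pair 2 than in pairs 1 and 3, as the stacked bars show. Per kilobase, it was 11900 in WT 2 and 12995 in CharmeKO 2, against 6063 and 6294 in pair 1 and 6209 and 6457 in pair 3. In pair 1, *Igfbp2* and *Igfbp4* led, with 42.6% and 39.1% of the sum in WT 1 and 33.2% and 38.0% in CharmeKO 1. *Igfbp4* led in WT 2 (41.3%), WT 3 (45.3%) and CharmeKO 3 (48.4%), and *Igfbp3* led in CharmeKO 2 (44.6%). Within each pair the sum was slightly higher in CharmeKO. The makeup differed within pairs too: from WT 3 to CharmeKO 3 the share of *Igfbp3* went from 16.4% to 40.8% and that of *Igfbp6* from 27.2% to 3.0%.

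**Figure D1:**
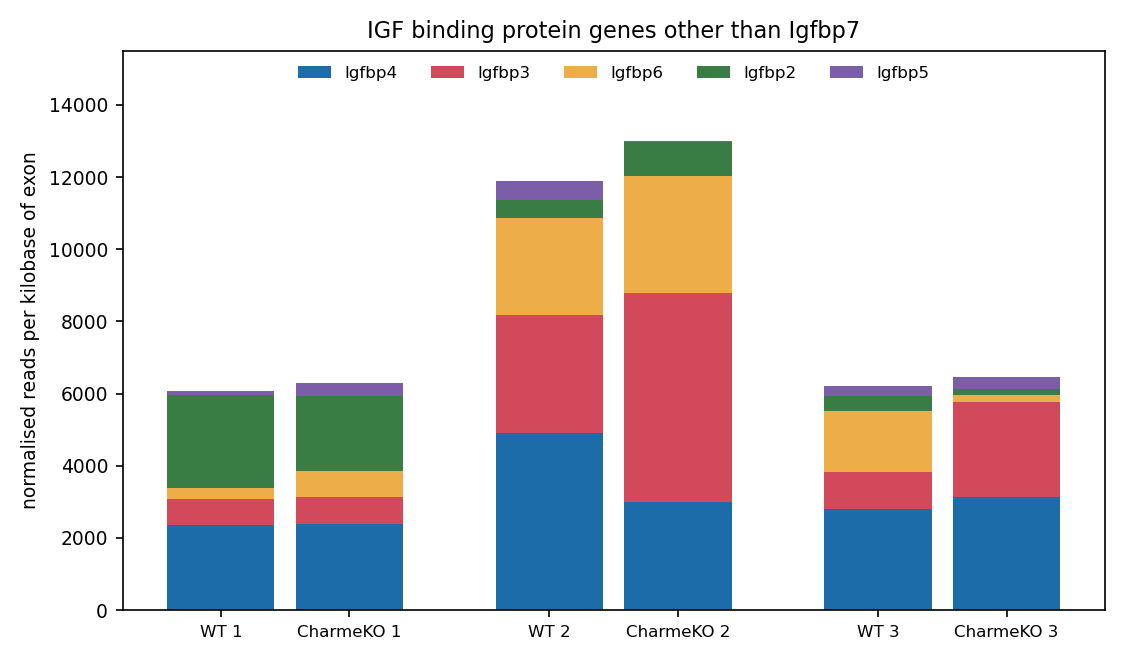
Normalised reads per kilobase of exon (vertical axis) of the binding protein genes other than *Igfbp7*, stacked, in the 6 libraries ordered by pair (horizontal axis). Pair 2 stands highest in both genotypes (11900 in WT and 12995 in CharmeKO), and the large *Igfbp2* segment is found only in pair 1.

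The ligand gene *Igf1* was read in all libraries. WT 1, 2 and 3 held 3193, 10578 and 4464 normalised reads of *Igf1*, and CharmeKO 1, 2 and 3 held 3553, 5945 and 3989. The groups overlapped, with WT 2 alone above all the others, and in both genotypes the library numbered 2 was the highest. The mean was 6078 ± 3948 (SD, n = 3) in WT and 4495 ± 1274 in CharmeKO. The log2 fold change, CharmeKO against WT, was -0.28 (SE 0.458), and it was 0.22 without WT 2. The macrophage and haematopoietic markers, of cells that also make IGF1, summed to 5215 in WT 2 and 13443 in CharmeKO 2, and to 8940 and 19327 in pair 1, where *Igf1* was lowest. Much of that sum was *Lyz2* (4919 and 12791 in pair 1). *Ptprc* (169 and 255), *Csf1r* (1427 and 1447) and *Adgre1* (221 and 515) were also higher in pair 1. In pair 2 they were at 44.8 and 60.0, 294 and 336, and 100 and 166. Of the listed markers only *Cd14* and *C1qa* were higher in pair 2 than in pair 1 in both genotypes. *Cd14* had 612 and 793 in pair 2, against 102 and 166 in pair 1. *C1qa* had 109 and 233, against 102 and 212. The part of macrophages in the *Igf1* level was not tested.

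The receptor gene *Igf1r* was lowest where *Igf1* was highest, in the libraries numbered 2. It had 9084, 5813 and 10709 normalised reads in WT 1, 2 and 3 and 6988, 5703 and 7565 in CharmeKO 1, 2 and 3. In both genotypes number 3 was the highest, and CharmeKO was lower than WT in all 3 pairs, with log2 differences of -0.38, -0.027 and -0.50. Of all tested genes, 14.0% were lower in CharmeKO in all 3 pairs. With means of 8535 ± 2494 (SD, n = 3) in WT and 6752 ± 953 in CharmeKO, the log2 fold change of *Igf1r* was -0.30 (SE 0.264). It was -0.12 without WT 3 and -0.19 without CharmeKO 2, and without WT 2 it was -0.56, where limma gave an unadjusted p of 0.0422 (adjusted p = 0.9997). When the libraries were scaled by their totals, an alternative chosen after seeing the data, the difference in pair 2 was 0.036, so that only 2 of 3 pairs were lower.

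*Igfbp4*, whose product is a strong inhibitor of IGF action until it is cut, and *Igfbp7* were the steadiest of the binding protein genes. *Igfbp4* had 10465, 21684 and 12419 normalised reads in WT 1, 2 and 3 and 10570, 13233 and 13794 in CharmeKO 1, 2 and 3. Only WT 2 stood apart, and the other 5 libraries lay between 10465 and 13794. The mean was 14856 ± 5994 (SD, n = 3) in WT and 12532 ± 1722 in CharmeKO. Its log2 fold change was -0.18 (SE 0.304), and it was 0.13 without WT 2.

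*Igfbp7* had 38924, 22256 and 35835 normalised reads in WT 1, 2 and 3 and 50599, 36164 and 29487 in CharmeKO 1, 2 and 3. It was highest in CharmeKO 1 and lowest in WT 2, and the groups overlapped. CharmeKO was higher in pairs 1 and 2 (by 0.38 and 0.70 on the log2 scale) and lower in pair 3 (-0.28). The mean was 32339 ± 8867 (SD, n = 3) in WT and 38750 ± 10791 in CharmeKO. Its log2 fold change of 0.27 (SE 0.327) was 0.017 without WT 2 and 0.055 without CharmeKO 1.

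*Igfbp3* was the one member that lay higher in CharmeKO in every pair. IGFBP3 is the main carrier of IGFs in the circulation. WT 1, 2 and 3 had 2256, 10195 and 3180 normalised reads of *Igfbp3*, and CharmeKO 1, 2 and 3 had 2339, 18159 and 8255. CharmeKO was higher in all 3 pairs, by 0.052, 0.83 and 1.38 on the log2 scale, so that pair 1 hardly differed, and the groups overlapped. Against this 1 of 8 members, 16.4% of all tested genes were higher in all 3 pairs, and *Igfbp3* stayed so with library totals as the scale. The mean was 5211 ± 4342 (SD, n = 3) in WT and 9584 ± 7993 in CharmeKO. This gave a log2 fold change of 0.75 (SE 0.857), which was 0.071 without CharmeKO 2, 0.31 without WT 1 and 1.55 without CharmeKO 1.

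*Igfbp2* separated pair 1 from the other libraries. Its product binds both IGFs and is known to be abundant in fetal tissue. It had 4771, 889 and 784 normalised reads in WT 1, 2 and 3 and 3859, 1746 and 295 in CharmeKO 1, 2 and 3. WT 1 and CharmeKO 1 were the highest of their groups, and the lowest library, CharmeKO 3, was 16.2-fold under the highest. The mesothelial and epicardial markers (11 of 12 listed) also summed highest in pair 1, at 13945 in WT 1 and 15820 in CharmeKO 1, against 2630 to 3090 in the other WT and 1039 to 5815 in the other CharmeKO libraries. Their defining marker *Upk3b* was at 4455 and 4537 in pair 1 and at 297 to 656 elsewhere, while *Wt1* was at 213 and 301 in pair 1 and highest in pair 2 (1011 and 1500). The part of such cells in the *Igfbp2* level was not tested. With means of 2148 ± 2272 (SD, n = 3) in WT and 1967 ± 1792 in CharmeKO, the log2 fold change of *Igfbp2* was -0.25 (SE 1.09), and it was 0.59 without WT 1 and 0.80 without CharmeKO 3.

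*Igfbp5*, whose product binds IGFs and the extracellular matrix, had the widest range of the members. WT 1, 2 and 3 had 598, 3263 and 1619 normalised reads of *Igfbp5*, and CharmeKO 1, 2 and 3 had 2103, 99 and 2059. CharmeKO 2 stood 32.9-fold under WT 2, while CharmeKO was higher in pairs 1 and 3 (by 1.81 and 0.35 on the log2 scale). The mean was 1827 ± 1345 (SD, n = 3) in WT and 1420 ± 1144 in CharmeKO. Its log2 fold change of -0.96 (SE 1.28) turned to 0.50 without CharmeKO 2. The tail-to-tail neighbour *Igfbp2* did not share this pattern: in pair 2 it was higher in CharmeKO by 0.97 on the log2 scale where *Igfbp5* was lower by 5.02.

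*Igfbp6*, whose product prefers IGF2 over IGF1, also moved in opposite ways between pairs. It had 322, 3011 and 1875 normalised reads in WT 1, 2 and 3 and 793, 3597 and 216 in CharmeKO 1, 2 and 3. The libraries numbered 2 were the highest of each genotype, CharmeKO 3 was the lowest of all, and the difference was 1.30, 0.26 and -3.11 on the log2 scale in pairs 1, 2 and 3. The mean was 1736 ± 1350 (SD, n = 3) in WT and 1535 ± 1809 in CharmeKO. Its log2 fold change was -0.52 (SE 1.2). It was 0.47 without CharmeKO 3 and 0.13 without WT 2.

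**Figure D2:**
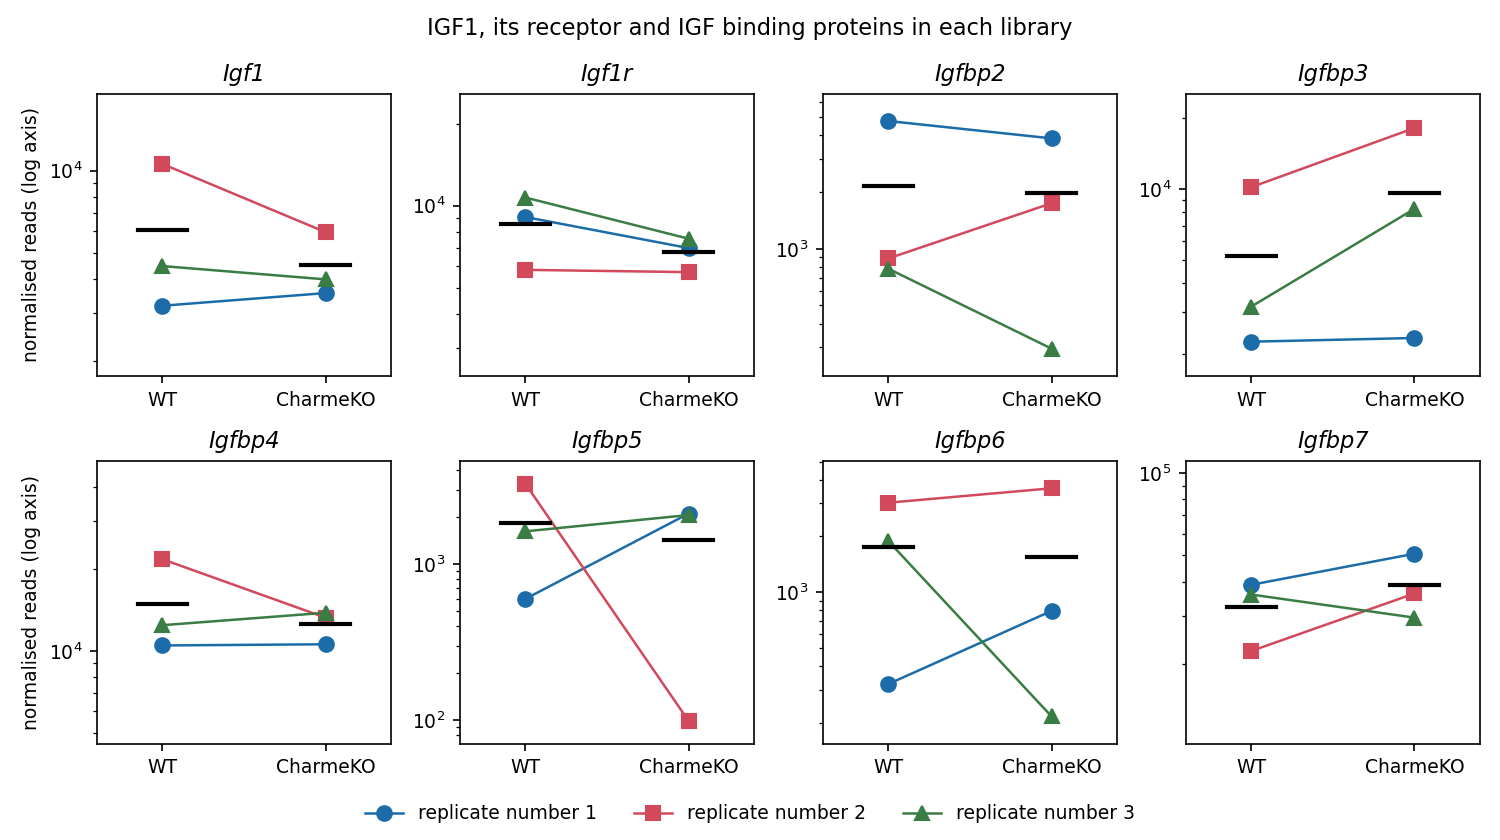
Normalised reads (vertical axes, logarithmic) of the 8 genes in WT and CharmeKO libraries. Points and joining lines stand for libraries of equal replicate number, and black bars for group means (n = 3). For *Igf1*, *Igfbp3* and *Igfbp6* the squares of number 2 lie highest in both genotypes, and for *Igf1r* they lie lowest.

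Most of the variation in these genes ran with the replicate number. It accounted for 55.1% to 86.9% of the variance of the log2 values in 7 of the 8 members, more than genotype or what was left over. *Igfbp5* was the exception, with 16.5% by replicate number, 7.98% by genotype and 75.5% left over. Genotype held 21.4% for *Igf1r*, 13.3% for *Igfbp7*, 10.8% for *Igfbp3*, and 0.797% for *Igfbp2*, the least. The medians over all tested genes were 5.91% for genotype and 73.8% for replicate number. These shares are not adjusted for the number of levels, 3 replicate numbers against 2 genotypes, which by itself favours the replicate number over genotype. The SD of the log2 values over the 6 libraries was 0.358 for *Igf1r*, 0.385 for *Igfbp4* and 0.399 for *Igfbp7*, below the median of 0.417 over all tested genes. It was 1.26 for *Igfbp3*, 1.52 for *Igfbp2*, 1.70 for *Igfbp6* and 1.85 for *Igfbp5*.

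**Figure D3:**
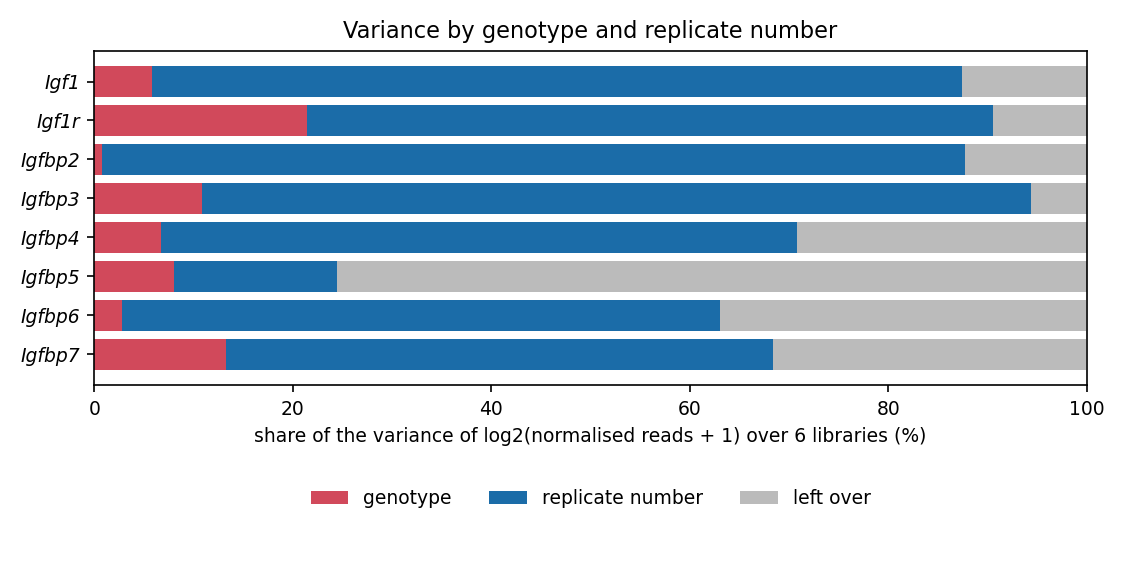
Share of the variance of log2(normalised reads + 1) over the 6 libraries (horizontal axis, %) that runs with genotype, with the replicate number, or with neither, for each gene. The replicate number holds the largest share in 7 genes, and *Igfbp5* is the exception with 75.5% left over.

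The proliferation markers set pair 2 apart too. All 10 were listed, and they summed to 7955 in WT 2 and 7302 in CharmeKO 2, against 18219 to 22817 in the other 4 libraries. *Mki67*, which encodes the proliferation antigen Ki-67, had 1478 and 1213 normalised reads in pair 2 and 3832 to 5930 elsewhere. *Igf1*, *Igfbp3* and *Igfbp6* were thus highest, and *Igf1r* lowest, in the libraries with the fewest reads of proliferation genes. The part of proliferation in those levels was not tested.

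Between the genotypes, no member passed the test. With limma on log2(normalised reads + 1) and Benjamini-Hochberg adjustment over 15948 genes, 0 of 8 members had an adjusted p under 0.05, where 0 genes of the whole table (0.0%) did, and each member's adjusted p was 0.9999. No member (0 of 8) reached 0.05 without adjustment either, against 143 genes (0.897%). The values of the groups overlapped for all 8 members, where 4.11% of all genes did not overlap. With DESeq2, 8 genes were called (0.0502%), and 64 (0.401%) with the replicate number as a block, none of them a member in either case, while edgeR called 0 genes with or without the block. With the block in limma, *Igfbp3* alone had an unadjusted p under 0.05 (0.0436, adjusted p = 0.7997), where 5.37% of all genes did.

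The intervals show what these libraries could resolve. The 95% interval of the log2 fold change ran from -0.94 to 0.33 for *Igf1r*, from -0.91 to 0.55 for *Igfbp4*, from -0.52 to 1.05 for *Igfbp7* and from -1.38 to 0.82 for *Igf1*. It ran from -1.30 to 2.81 for *Igfbp3*, from -2.85 to 2.36 for *Igfbp2*, from -3.40 to 2.36 for *Igfbp6* and from -4.01 to 2.10 for *Igfbp5*. Without the replicate block, the interval of *Igfbp2*, *Igfbp5* and *Igfbp6* held 4-fold changes in both directions. That fit could not exclude such a difference. With the block the interval of *Igfbp3* narrowed to 0.034 to 1.47 and that of *Igf1r* to -0.638 to 0.03. The block also narrowed the intervals of the other members except *Igfbp5*, for which it widened to run from -4.683 to 2.77. That of *Igfbp2* narrowed to -1.501 to 1.01, which held no 4-fold change. That of *Igfbp6* narrowed to -2.916 to 1.88, which held a 4-fold decrease but no 4-fold increase. The intervals with the block rest on the pairing taken from these data. The median log2 fold change was -0.26 over the 8 members and 0.002 over all tested genes, with 2 members above and 6 below zero.

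**Figure D4:**
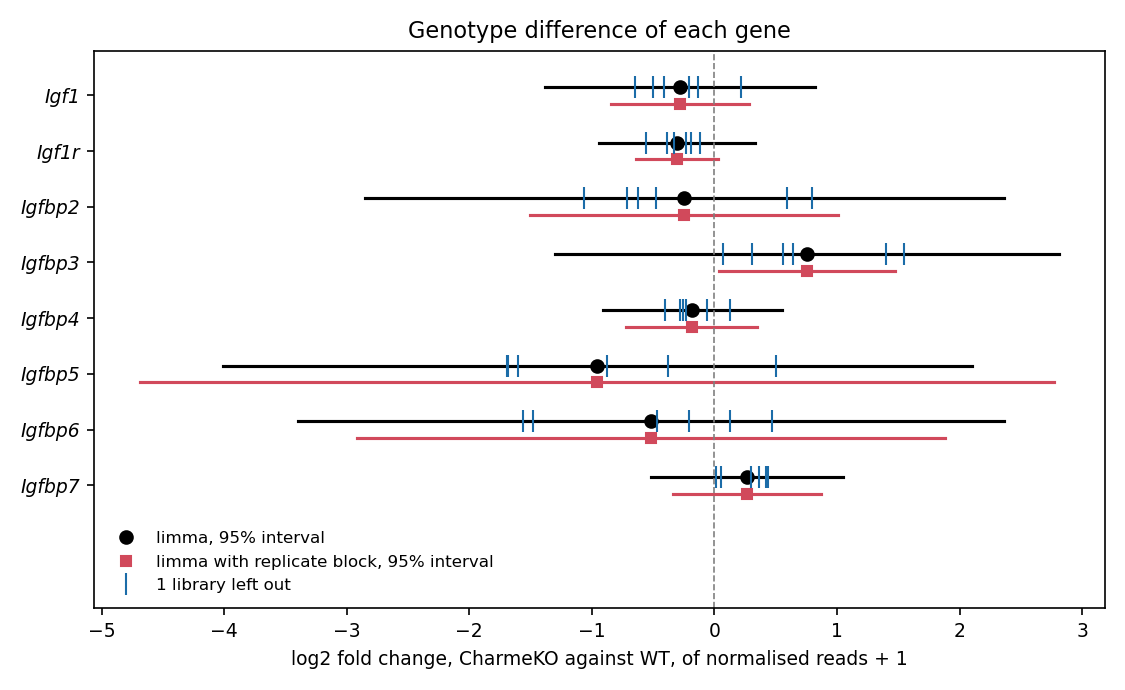
Log2 fold change of normalised reads + 1, CharmeKO against WT (horizontal axis), for each gene. Circles and black lines give the limma estimate and its 95% interval, squares and red lines the same with the replicate block, and blue ticks the estimate with 1 library left out. Without the block every interval spans 0, and for *Igf1*, *Igfbp2*, *Igfbp4*, *Igfbp5* and *Igfbp6* the ticks lie on both sides of 0.

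Genes of similar pattern were sought by the root mean square difference of mean-centred log2 values over the 6 libraries, among 11575 other genes with at least 100 normalised reads on average. Nearest to *Igf1* were *Cmtr1* (0.133) and *Zbtb8a* (0.136), and nearest to *Igf1r* were *Sms* (0.041) and *Dtl* (0.0644). The nearest to *Igfbp2* were *Mocos* (0.235) and *3300005D01Rik* (0.276), to *Igfbp3* *Mark1* (0.148) and *Thpo* (0.184), and to *Igfbp4* *Spata7* (0.0583) and *Ide* (0.0587), the gene of insulin-degrading enzyme. *Ndufa3* (0.067) and *Commd2* (0.0682) were nearest to *Igfbp7*, and *Cyp2d22* (0.459) and *Nell2* (0.502) to *Igfbp6*. The nearest to *Igfbp5* were *Nrep* (0.869) and *Sema3d* (0.874). Among the members themselves *Igf1* and *Igfbp4* were nearest to each other (0.277). A small difference is easier to reach for genes that vary little, so these values are not to be ranked across members.

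The rest of the IGF pathway was examined with a list of 53 other genes, of which 50 were in the table and 48 were tested. None was called by limma (0 of 48), and 2 had an unadjusted p under 0.05, *Pappa* and *Grb10*, where 0.897% of all genes did. With the replicate number as a block in limma, 6 of 48 had an unadjusted p under 0.05, where 5.37% of all genes did. None of the list was called with that block in limma either. The median log2 fold change of the list was -0.095. In CharmeKO 15 genes of the list were lower in all 3 pairs (31.2%, against 14.0% of all genes) and 6 were higher (12.5%, against 16.4%). With library totals as the scale, an alternative chosen after seeing the data, 13 were lower and 5 higher. The values of the groups did not overlap for 2 of the 48 genes, *Igf2r* and *Grb10*, a share near the 4.11% of all genes. The smooth muscle and pericyte markers were also lower in CharmeKO in all 3 pairs for 10 of 14 genes, with a summed level of 143779, 35502 and 254945 in WT 1, 2 and 3 and 136240, 13668 and 34143 in CharmeKO 1, 2 and 3, and their part in these differences was not tested.

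*Grb10* encodes an adaptor that binds the activated IGF1 and insulin receptors and dampens their signal. It had 12738, 15598 and 19713 normalised reads in WT 1, 2 and 3 and 8489, 10385 and 12203 in CharmeKO 1, 2 and 3. Every CharmeKO library was below every WT library, and the difference was nearly the same in each pair, -0.59, -0.59 and -0.69 on the log2 scale. The mean was 16017 ± 3506 (SD, n = 3) in WT and 10359 ± 1857 in CharmeKO. This gave a log2 fold change of -0.62 (SE 0.237, limma adjusted p = 0.9999). With the replicate block the limma adjusted p was 0.7997, and DESeq2 with the block called it (log2 fold change -0.63, adjusted p = 0.000123), the only gene of the list that any of the tools called. Leaving out single libraries gave -0.775 to -0.46. *Grb10* is an imprinted gene, as are *Igf2* and *Igf2r*.

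*Igf2*, the second ligand gene, was low except in a single library. It had 22.7, 85.4 and 100 normalised reads in WT 1, 2 and 3 and 32.7, 37789 and 220 in CharmeKO 1, 2 and 3. CharmeKO was higher in all 3 pairs, by 0.51, 8.77 and 1.13 on the log2 scale. The CharmeKO mean of 12681 rests on CharmeKO 2, without which it was 126. The log2 fold change was 3.47 (SE 2.43, limma adjusted p = 0.9999). DESeq2 without the block gave 7.52 with no p-value, so that fit could not call *Igf2*. In CharmeKO 2 the reads of *Igf2* exceeded those of *Igf1*, and in the other 5 libraries *Igf1* had the more reads, which are not levels per length. That library was also the one with the lowest *Igfbp5* and the highest *Igfbp3* and *Igfbp6*.

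Of the receptors, *Igf2r*, which clears IGF2 from the cell surface, had 23255, 24688 and 25629 normalised reads in WT 1, 2 and 3 and 21195, 20789 and 14114 in CharmeKO 1, 2 and 3. All CharmeKO libraries were below all WT libraries, CharmeKO 3 by the most, and the log2 fold change was -0.41 (SE 0.227, limma adjusted p = 0.9999), or -0.223 without CharmeKO 3. The insulin receptor gene *Insr* had a log2 fold change of -0.18 (SE 0.358), which was 0.0987 without WT 2, 0.0856 without CharmeKO 1, -0.475 without WT 1 and -0.359 without CharmeKO 2. It differed by -0.11, -0.37 and -0.053 in pairs 1, 2 and 3.

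*Pappa* encodes the protease pappalysin-1, which cuts IGFBP4 and IGFBP5 and so releases IGFs. It had 6524, 3356 and 16242 normalised reads in WT 1, 2 and 3 and 4768, 917 and 1040 in CharmeKO 1, 2 and 3. CharmeKO was lower in all 3 pairs, with log2 differences of -0.45, -1.87 and -3.96, but CharmeKO 1 lay above WT 2. The log2 fold change was -2.10 (SE 0.799, limma adjusted p = 0.9999, 0.7997 with the block). Of the genes of its substrates, *Igfbp4* was lower in 1 of 3 pairs and *Igfbp5* in 1 of 3.

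Downstream of the receptors, the genes with the lowest limma p of their groups were *Phlpp1*, a phosphatase that acts on Akt, *Foxo1*, a transcription factor that Akt inhibits, and *Socs2*, a feedback inhibitor of growth hormone signalling. Their log2 fold changes were -0.71 (SE 0.343), -0.32 (SE 0.279) and -0.62 (SE 0.271), each lower in all 3 pairs and each with a limma adjusted p of 0.9999. Without WT 3 *Phlpp1* was at -0.379. *Foxo1* was at -0.181 without WT 2, -0.208 without CharmeKO 1, -0.186 without CharmeKO 3 and -0.562 without CharmeKO 2. Against 14.0% of all genes lower and 16.4% higher in all 3 pairs, 4 of 12 genes of the PI3K and Akt group were lower (33.3%) and 2 higher (16.7%). In the mTOR and FoxO group 2 of 11 were lower and 2 higher (18.2% each, near the shares of all genes), and in the growth hormone axis 2 of 6 were lower and 0 higher, which are few genes.

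**Figure D5:**
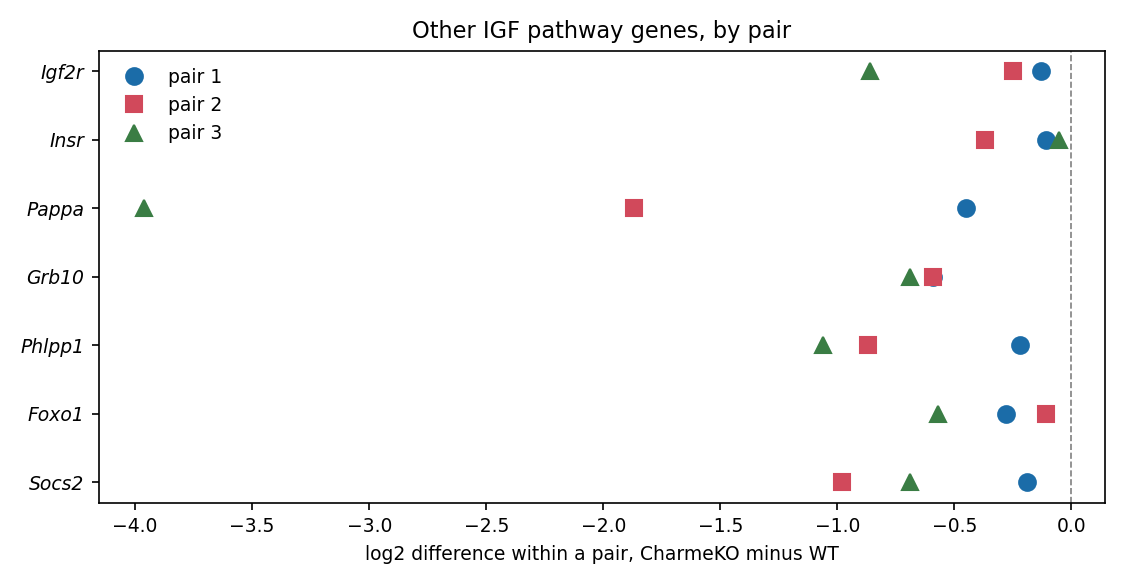
Log2 difference within each pair, CharmeKO minus WT (horizontal axis), for 7 other IGF pathway genes. *Igf2*, higher in CharmeKO in all 3 pairs, is left out because of its difference of 8.77 in pair 2. All points lie left of 0, those of *Grb10* between -0.69 and -0.59 (the point of pair 1 lies under that of pair 2), and those of *Pappa* from -3.96 to -0.45. Most of these genes were named for the lowest limma p of their groups and do not stand for the list. Of its 48 tested genes, 15 were lower and 6 higher in all 3 pairs.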

How the data were processed

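Per the labels and the study's methods, poly(A)-selected RNA of cultured CFs was sequenced, aligned with STAR (GRCm39 in the processing notes, beside GRCh38) and counted per gene on the reverse strand on Ensembl release 87, to which *Charme* had been added; versions are not given in the sources used here. The deposited values are a normalised signal: the authors' read counts divided by a DESeq2 size factor per library. Gene coordinates and lengths are those of GENCODE M21 (GRCm38). Of the 19446 gene IDs, 19380 were found there.

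Dividing each library by its smallest positive value gave whole reads for 100% of 116676 values (tolerance 1e-06, largest deviation 6.3e-09). The main test was limma 3.58.1 on log2(value + 1), which understates changes of low genes, with a trended prior variance and genotype as the only term. It covered the 15948 genes that reached 10 reads in 2 or more libraries. P-values were two-sided, adjusted over all genes (threshold 0.05). edgeR 4.0.16 (called 0 genes on the recovered reads) and DESeq2 1.42.0 were alternatives, run in R 4.3.3 and tested on simulated data. An exact permutation test of 3 against 3 libraries cannot go below 0.1 and was not used. Totals per library were 38330019 to 46797446 reads, and a gene with 0 reads could lie at up to 3 reads, 2.61 to 3.3 normalised reads, counting error only.

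After the group mean was subtracted, the 2 libraries of one number correlated across genes with r = 0.762, 0.514 and 0.217 for numbers 1, 2 and 3 (minimum set at 0.1). Libraries of unequal number gave -0.643 to 0.222, with WT 2 and CharmeKO 3 at the top. The labels do not say what a number shares, and on the correlations the numbers were taken to pair the libraries. The members, lists and naming rule were chosen with earlier results of these data known. Named were the members, for each the 2 genes nearest in pattern, and from each pathway group the gene with the lowest p, plus *Igf2*, *Igf2r* and *Insr*. Other names were chosen after their values were seen. Markers of cardiomyocytes (6 of 13 listed) summed to 238 to 792 in WT and 236 to 1055 in CharmeKO. Native CFs were not analysed here.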

Additional observations from a re-analysis of the deposited data

How the results depend on the processing

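Over 11 settings that kept all libraries (pseudocounts of 0.5 and 8, other filters and scalings, edgeR, DESeq2 and the replicate block in each tool) every member kept its direction and none passed the adjusted threshold. The size moved by over 1.5 times in edgeR and DESeq2 without the block, where both gave -0.44 for *Igf1*, -0.13 for *Igfbp2*, -0.37 for *Igfbp5* and -0.18 for *Igfbp6*, and with the block for *Igfbp5* (-0.43 and -0.45); the cause was not tested. The number of genes called over the table was 0 except with DESeq2 (8) and DESeq2 with the replicate block (64), and the number of other pathway genes called was 0 except with DESeq2 and the block (1, *Grb10*); the cause was not tested. The replicate block changed no other call. With library totals as the scale, 0 members were lower in all 3 pairs in place of 1. The mean of *Igf2* in CharmeKO was 126 without CharmeKO 2.

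With single libraries left out, the log2 fold change ranged from -0.65 to 0.22 for *Igf1*, -0.56 to -0.12 for *Igf1r*, -1.06 to 0.80 for *Igfbp2*, 0.071 to 1.55 for *Igfbp3*, -0.40 to 0.13 for *Igfbp4*, -1.69 to 0.50 for *Igfbp5*, -1.56 to 0.47 for *Igfbp6* and 0.017 to 0.44 for *Igfbp7*. With a pair left out and the replicate block, chosen after seeing the data and given as a value with no test, the ranges were -0.86 to 0.33 for *Igfbp2*, -1.43 to 0.78 for *Igfbp6* (both highest without pair 3), -0.35 to 0.083 for *Igfbp4*, -2.34 to 1.08 for *Igfbp5* and -0.50 to -0.0041 for *Igf1* (these highest without pair 2). The other 3 members kept their direction. Depth limits none of the members, which had at least 99 normalised reads in every library; the spread between 3 libraries does.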

Other observations

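Other genes of the list, chosen after their values had been seen, are given as values. *Ghr*, the growth hormone receptor gene, had 10340, 5463 and 5582 normalised reads in WT 1, 2 and 3 and 7834, 4208 and 3829 in CharmeKO 1, 2 and 3. It was lower in all 3 pairs, with log2 differences of -0.40, -0.38 and -0.54, and had an unadjusted p of 0.276 in limma and 0.00554 in limma with the replicate block (adjusted p = 0.7997). *Socs3*, an inhibitor of cytokine signalling, followed the pattern of *Igfbp3* by library, with 2252, 10947 and 3320 normalised reads in WT 1, 2 and 3 and 2238, 18641 and 5069 in CharmeKO 1, 2 and 3.

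*Stc1*, whose product is an inhibitor of pappalysins, ranged from 215 normalised reads in WT 1 to 5734 in CharmeKO 3, with 3182 in WT 2, and its log2 difference was 0.34, -1.87 and 2.02 in pairs 1, 2 and 3. *Htra1*, a secreted serine protease, had 3445, 13726 and 9920 normalised reads in WT 1, 2 and 3 and 2789, 4543 and 11144 in CharmeKO 1, 2 and 3. The groups overlapped for all 4 genes.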
